A study of Mus musculus with 8 samples.

Results

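The genes described here are 10 genes of the p53 and p63 response to DNA damage, chosen by name from the 46078 genes of the count table. They are the transcription factors Trp63 and Trp53, the checkpoint kinases Chek1 and Chek2, the p53 inhibitor Mdm2, the cell cycle targets Cdkn1a and Ccng1, and the cell death targets Pmaip1, Bax and Bbc3. All 10 were found in the table, each on 1 row. In CNOT7&8 KO oocytes, the mRNAs of Pmaip1, Cdkn1a, Ccng1 and Trp63 were higher than in control oocytes, those of Chek1 and Mdm2 were lower by less than 2-fold, and those of Trp53, Chek2 and Bax did not pass the test.

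p53 and p63 are related transcription factors that bind the same kind of DNA site. When DNA is broken, the kinases ATM and ATR activate the kinases CHK2 and CHK1, and these phosphorylate p53 and p63 and also hold back the cell cycle. MDM2 is a ubiquitin ligase that p53 induces and that in turn destroys p53. In oocytes of resting follicles the guardian is TAp63, a long form of p63 that is kept inactive until CHK2 and CK1 phosphorylate it, after which PUMA (the product of Bbc3) and NOXA (the product of Pmaip1) start cell death. Activation of p53 and p63 is a change of protein, so mRNA levels report the abundance of the pathway's parts and targets only.

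Fully grown germinal vesicle (GV) oocytes were compared between 2 genotypes, Zp3-Cre (control) and CNOT7&8 KO, with 4 libraries of 100 oocytes for each. The KO oocytes came from mice with floxed Cnot7 and Cnot8 alleles that carried Zp3-Cre, a transgene in which the Zp3 promoter drives Cre in growing oocytes. Deletion therefore takes place after the resting follicle stage, and the controls carry the same transgene. The mice were 4 weeks old, of C57BL/6J background and primed with PMSG, and the oocytes were stripped of cumulus cells with hyaluronidase and then held in medium with dibutyryl-cAMP. The labels do not say how many mice gave the oocytes of a library, so p-values measure the spread between libraries. A library pools 100 oocytes, so a change in every oocyte and a larger change in a few of them, or in other cells carried along, cannot be told apart.

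Short sequences of these genes are shown because they are what the pathway's factors and the CCR4–NOT complex are known to act through. In the RefSeq promoters of GRCm38.p6, which reach from 250 bases before to 50 bases after a gene's start, 8 of the 10 genes had an entry. The p53 half-site was searched as the consensus decamer of the p53 family on both strands, which is the same search because the motif is a palindrome. Only exact matches were counted, so half-sites with a mismatch are neither counted nor marked. Among all 32851 promoters in the table, 8.36% hold a half-site and 0.0731% hold a pair of them with at most 13 bases in between. Cdkn1a was the only one of the 8 genes with a pair, in its upstream promoter (chr17:29090729-29091028, plus strand). The decamer directly after its half-site at position -51 differs from the consensus at 1 base and is left unmarked. Trp53, Mdm2, Ccng1 and Bax had 1 half-site, whereas Chek1, Chek2 and the 3 promoters of Bbc3 had none in these windows. Half-sites are in capitals, and positions are counted from 0 at the gene's start:
Cdkn1a, position -73: ggtggGGACTAGCTTtctggccttcagg
Cdkn1a, position -51: ttcagGAACATGTCTtgacatgttcagc
Ccng1, position -185 (chr11:40755237-40755536, minus strand): tgcccGGGCAAGCCTtggcactgaacac
Mdm2, position -186 (chr10:117710709-117711008, minus strand): gatagGAACTTGCCTagcgaccattgcg
Bax, position -201 (chr7:45466849-45467148, minus strand): atcccAGGCAAGCTTtgaacttgcggca

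The other sequences are elements of the 3′UTR that are known to bring deadenylases or polyadenylation factors to an mRNA. They were counted in the longest 3′UTR of each gene in GENCODE vM21: the cytoplasmic polyadenylation element (CPE) TTTTAT, the Pumilio response element (PRE) TGTAAATA, and the AU-rich element (ARE) ATTTA, with its longer form TTATTTATT. The CPE occurred 8 times in Trp63, 5 times in Ccng1, 4 times in Pmaip1, 3 times each in Chek1 and Mdm2, and 1 time each in Trp53 and Chek2. The ARE occurred 8 times each in Ccng1 and Mdm2, 6 times each in Trp63 and Chek1, 4 times each in Cdkn1a and Pmaip1, and 1 time in Trp53. Cdkn1a had no CPE, Chek2 had no ARE, and Bax and Bbc3 had neither. No gene of the 10 had a PRE. Among the 15125 tested protein-coding genes with a 3′UTR of at least 50 bases, 56.2% have a CPE, 12% a PRE and 69.8% an ARE. Of the 9 genes that were tested, 7 had a CPE and 7 had an ARE. One site is shown for each of 5 genes whose mRNA changed, with the element in capitals and the coordinates of the element in GRCm38:
Trp63, CPE (chr16:25891856-25891861, plus strand): tgtgggttttTTTTATttttataattg
Ccng1, CPE (chr11:40748715-40748720, minus strand): aacgggtgtaTTTTATccttaacctct
Cdkn1a, ARE (chr17:29099669-29099673, plus strand): agattattattATTTAagcccctccca
Mdm2, TTATTTATT (chr10:117688925-117688933, minus strand): gcattgatgTTATTTATTtgcaaataa
Chek1, CPE (chr9:36709166-36709171, minus strand): cgctgtactgTTTTATgtcattgtctt
The Trp63 site is followed at once by a further copy of TTTTAT, and TTATTTATT occurs in 7.91% of all tested genes with a 3′UTR and, of these 10, in Mdm2 alone.

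Values are CPM, a gene's counts set to a common library total, with totals scaled by the TMM method of edgeR. CPM values are relative to the other counts of a library, so amounts per oocyte were not measured. Counts summed to between 14943671 and 44092144 in control and between 8639444 and 26784110 in KO libraries, and a count of 3, taken as the detection floor, was worth between 0.0802 and 0.326 CPM. These floors cover counting error only. The deleted genes were lower in every KO library, at 622 to 789 CPM against 886 to 1049 for Cnot7 and 33.1 to 36.1 against 154 to 197 for Cnot8. The log2 fold change was -0.38 for Cnot7 and -2.25 for Cnot8, where the median of tested genes at 100 CPM or more was -0.37. The fall of Cnot7 was thus close to that of other genes of its level. The sources used here do not name the exons that were removed, and the counts cover whole genes. The oocyte markers Zp1, Zp2, Zp3, Gdf9, Bmp15, Ooep, Nlrp5, Zar1, Dppa3 and Kit summed to 17838 to 20279 CPM in control and 14241 to 16658 CPM in KO libraries. By the test described next, 6 of the 10 were lower, by less than 2-fold. All 10 had a mean of 100 CPM or more, a level at which 55.2% of tested genes were lower in KO. Genes with at least 0.2 CPM in 2 libraries were tested, 19241 in all, with the quasi-likelihood test of edgeR. A gene passed with an adjusted p of at most 0.05, and differentially expressed genes (DEGs) also changed by at least 2-fold. Of the tested genes, 23.8% were upregulated and 6.56% downregulated DEGs, and the median log2 fold change was 0.12.

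Of the 10 genes, 9 could be tested, and 4 of them were upregulated and none was a downregulated DEG. Without the 2-fold threshold, 4 were higher and 2 lower, where 31.2% of all tested genes were higher and 24.1% lower. For these 6 genes the groups shared no range, with KO values above the controls in 4 and below them in 2. Over all tested genes, 27% had no overlap with KO higher and 21.4% with KO lower. The median log2 fold change of the 9 genes was 0.25. DESeq2 and the exact test of edgeR gave the same counts of genes past the test, 4 higher and 2 lower.

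**Figure D1:**
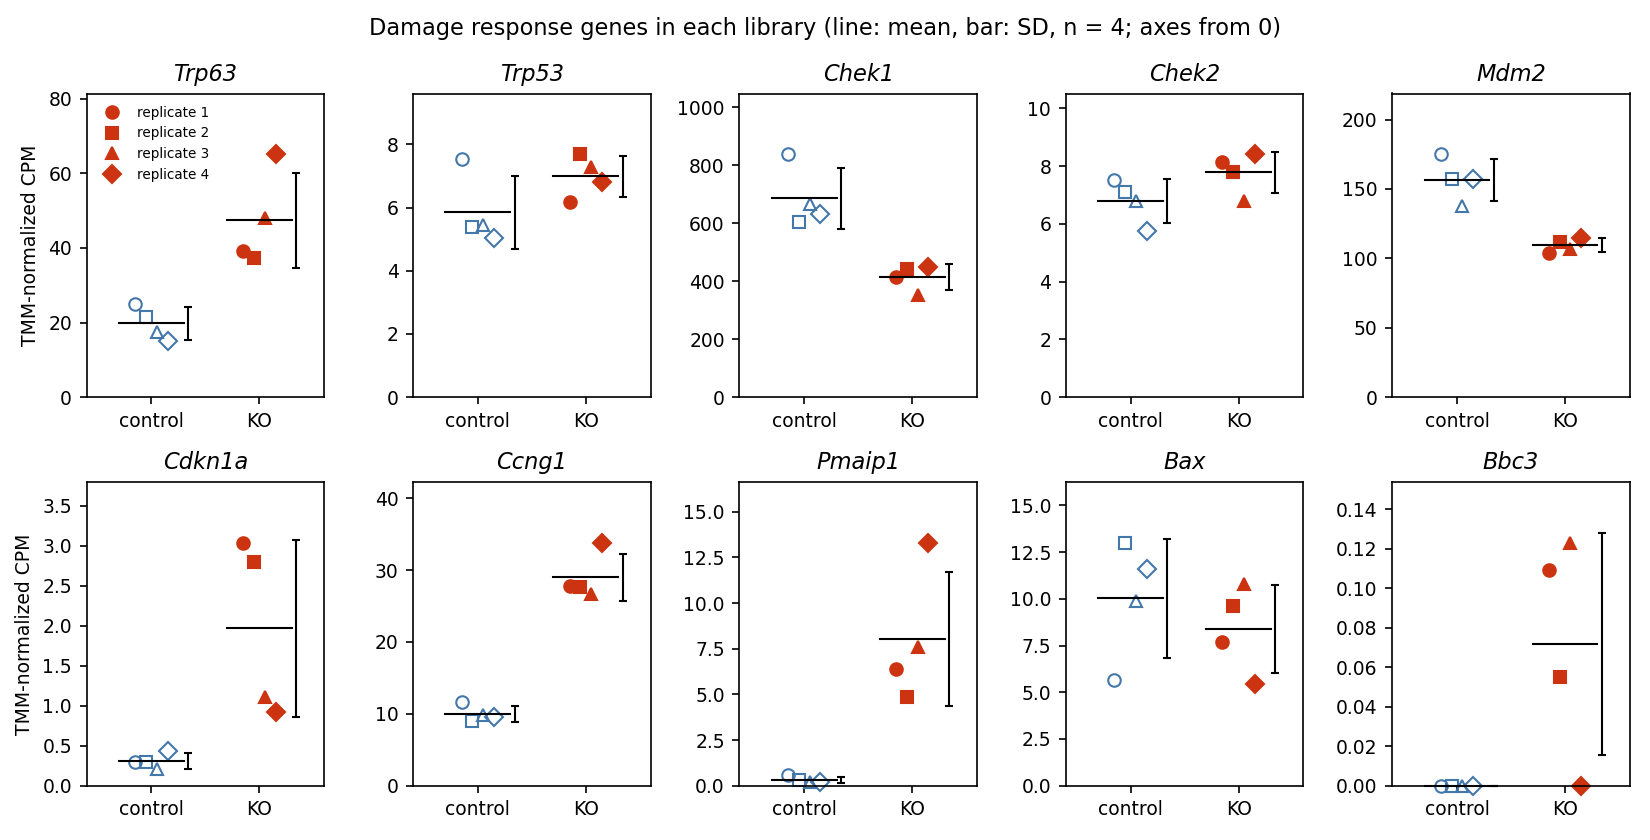
TMM-normalized CPM (vertical axes, each from 0) of the 10 genes in the 4 control (open) and 4 KO (filled) libraries, with 1 symbol for each replicate number, the mean as a line and the SD as a bar. Groups stand apart for Trp63, Chek1, Mdm2, Cdkn1a, Ccng1 and Pmaip1 and overlap for Trp53, Chek2 and Bax, and Bbc3 lies at or below 0.123 CPM.

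Trp63, which encodes p63, rose in KO oocytes. It lies on chromosome 16 (ENSMUSG00000022510, 25683763 to 25892102, plus strand). Its level was 25.1, 21.4, 17.5 and 15 CPM in control replicates 1 to 4 and 39.2, 37.2, 48 and 65.1 CPM in KO replicates 1 to 4. All KO libraries were above all control libraries, and KO replicate 4 was the highest. The mean rose from 19.8 ± 4.45 to 47.4 ± 12.7 CPM (SD, n = 4), 2.39-fold (log2 fold change 1.26, SE, the standard error, 0.21, edgeR adjusted p = 0.000285; exact permutation test, two-sided p = 0.0286, the smallest that 4 libraries against 4 can give). Without KO replicate 4 and control replicate 1, whose deviations from their group means went together across genes (correlation 0.59), the log2 fold change was 1.20, an alternative added after the data were seen. These 2 libraries had the lowest share of counts on the 18S rRNA gene copy Rn18s-rs5 in their groups. It was 0.0504% against 2.75% to 5.75% in the other control libraries, and 0.559% against 1.89% to 6.94% in the other KO libraries. They also had the highest values of their groups for Trp63, Pmaip1, Ccng1, Chek1, Chek2 and Mdm2, and the lowest for Bax. The 2 libraries were also the deepest of their groups, at 44092144 counts for control replicate 1 and 26784110 for KO replicate 4. The parts of the differences in 18S share and in depth in these values were not tested. Counts are per gene, so the long TAp63 form and the short ΔNp63 form, which lacks the first activation domain, are added together. A processed pseudogene, Gm27005, and the snRNA Gm24928 lie within Trp63 but share no exon with it, and neither had more than 1 count in a library.

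Trp53, which encodes p53, did not pass the test. The gene is on chromosome 11 (ENSMUSG00000059552, 69580359 to 69591873, plus strand). It was measured at 7.54, 5.38, 5.44 and 5.03 CPM in control replicates 1 to 4 and at 6.19, 7.69, 7.28 and 6.81 CPM in KO replicates 1 to 4. Control replicate 1 was as high as the KO libraries, and the other 3 control libraries lay below all of them. The log2 fold change was 0.25, with a 95% interval from -0.15 to 0.65 (edgeR adjusted p = 0.268), so a change of 2-fold in either direction lies outside the interval. When libraries were scaled by their totals only, it was 0.55 and passed (edgeR adjusted p = 0.0204). The ratio of Trp63 to Trp53 counts, into which no library scaling enters, was 2.99 to 3.98 in control and 4.84 to 9.55 in KO libraries, with no overlap. This ratio, like the 2 further ones given below, was chosen after the values were seen and is given without a test.

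Chek1, which encodes the checkpoint kinase CHK1, had the highest level of the 10 mRNAs per kb of exon and fell in KO oocytes. The gene is on chromosome 9 (ENSMUSG00000032113, 36708482 to 36727065, minus strand). The control libraries had 838, 603, 668 and 633 CPM in replicates 1 to 4, and the KO libraries had 416, 442, 351 and 450.4 CPM. Every KO library was below every control library, and control replicate 1 was the highest of all. The mean was 685 ± 105 CPM in control and 415 ± 45 CPM in KO (SD, n = 4), with a log2 fold change of -0.72 (SE 0.13, edgeR adjusted p = 0.000478; exact permutation test, two-sided p = 0.0286), short of the 2-fold threshold. Chek2, which encodes CHK2, the kinase that acts on TAp63 in oocytes, lies on chromosome 5 (ENSMUSG00000029521, 110839979 to 110874145, plus strand). It had 7.51, 7.11, 6.8 and 5.75 CPM in control replicates 1 to 4 and 8.14, 7.8, 6.78 and 8.41 CPM in KO replicates 1 to 4. The groups overlapped, and KO replicate 3 lay below 3 of the controls. Its log2 fold change was 0.19, with a 95% interval from -0.17 to 0.55 (edgeR adjusted p = 0.344). With scaling by library size only it was 0.48 and passed the test (edgeR adjusted p = 0.0219). The ratio of Chek1 to Chek2 counts was 84.8 to 111 in control and 51.1 to 56.7 in KO libraries, without overlap.

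Mdm2, the ubiquitin ligase that degrades p53 and is itself a p53 target, fell by less than 2-fold. It lies on chromosome 10 (ENSMUSG00000020184, 117688875 to 117710758, minus strand). Its values were 175, 157, 138 and 157 CPM in control replicates 1 to 4, and 104, 112, 107 and 115 CPM in KO replicates 1 to 4. The lowest control library was above the highest KO library, and the KO libraries lay close together. The mean was 157 ± 14.8 CPM in control and 109 ± 5.19 CPM in KO (SD, n = 4), with a log2 fold change of -0.52 (SE 0.10, edgeR adjusted p = 0.00128). It was -0.23 with scaling by library size only (edgeR adjusted p = 0.0471), less than 0.5 times the main value. The 2 lower genes, Chek1 and Mdm2, are also those of the 10 with a mean above 100 CPM, and 55.2% of the 2414 tested genes at that level were lower in KO by the same test, with a median log2 fold change of -0.37 among them.

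Cdkn1a, which encodes the cyclin-dependent kinase inhibitor p21, rose from a level close to the detection floor. Its position is on chromosome 17 (ENSMUSG00000023067, 29090976 to 29100727, plus strand). The counts were 11, 6, 3 and 6 in control replicates 1 to 4 and 28, 51, 18 and 27 in KO replicates 1 to 4. In CPM these were 0.294, 0.296, 0.204 and 0.437 in control and 3.04, 2.8, 1.11 and 0.92 in KO. All KO libraries were above the controls, with KO replicates 1 and 2 well above KO replicates 3 and 4. The mean was 0.308 ± 0.0962 CPM in control and 1.97 ± 1.11 CPM in KO (SD, n = 4), with a log2 fold change of 2.62, or 6.16-fold (SE 0.48, edgeR adjusted p = 0.000676; exact permutation test, two-sided p = 0.0286). Of the control libraries, 3 passed the 0.2 CPM filter by themselves, so the gene did not enter the test through the KO libraries only. The annotation has a transcript model of uncertain status, AC167363.2, on the opposite strand over 273 bases of Cdkn1a exons. No counts of AC167363.2 were used here and the strand setting of the counting is not stated, so its reads cannot be told from those of Cdkn1a.

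Markers of other ovarian cells also moved between the groups. Of 13 granulosa and cumulus cell genes, 12 were tested and 6 were upregulated (Fshr, Inha, Inhba, Kitl, Nr5a2 and Ptgs2), where 23.8% of all tested genes were. Cyp19a1 was lower by less than 2-fold and 5 did not pass the test. The 13 genes summed to 127 to 175 CPM in control and 238 to 302 CPM in KO libraries. In control libraries most of this was Cyp19a1, at 50.4 to 67.7 CPM, and Nr5a2, at 48.3 to 69.3 CPM. Foxl2, a defining transcription factor of granulosa cells, had 0 or 1 count in each of the 8 libraries. In KO replicates 1 to 4 the sum was 301, 302, 238 and 257 CPM, and the upregulated markers did not share 1 order among these libraries. Inha, an inhibin subunit, had 38.4, 34.1, 26.5 and 4.77 CPM in them, whereas Ptgs2, a prostaglandin synthase, had 37.4, 38.7, 28.9 and 41.8 CPM. The part of such cells in the values of Cdkn1a, Ccng1, Pmaip1 and Trp63 was not tested. Of 6 blood cell genes, Ptprc and Cd68 were tested and both were upregulated, where 23.8% of all tested genes were. Ptprc had 1, 1, 5 and 1 counts in control and 3, 10, 18 and 14 in KO replicates 1 to 4. Only 1 control library of Ptprc reached 0.2 CPM, so it passed the filter through the KO libraries, and its groups overlapped. The 6 genes summed to 0.749 to 1.83 CPM in control and 3.04 to 5.12 CPM in KO libraries. The haemoglobin genes Hba-a1, Hbb-bs and Hbb-bt had no counts. The 7 genes of theca, stroma and endothelium summed to 88.9 to 110.5 CPM in control and 74.6 to 89.6 CPM in KO libraries. Nearly all of this was Pecam1, at 86.8 to 108 CPM in control and 73.3 to 88 CPM in KO libraries. None of the other genes of this list was above 1.53 CPM in a library. Of the 6 tested, Col3a1 was downregulated, where 6.56% of all tested genes were, and the other 5 did not pass the test. Col3a1 had 11, 3, 8 and 7 counts in control and 0, 2, 0 and 4 in KO replicates 1 to 4. No KO library of Col3a1 reached 0.2 CPM, so it passed the filter through the control libraries.

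Ccng1, which encodes cyclin G1, a p53 target that recruits the phosphatase PP2A to MDM2, rose in KO oocytes with little spread. It lies on chromosome 11 (ENSMUSG00000020326, 40748552 to 40755311, minus strand). Its values were 11.6, 8.98, 9.87 and 9.54 CPM in control replicates 1 to 4 and 27.8, 27.7, 26.6 and 33.8 CPM in KO replicates 1 to 4. The lowest KO library was above the highest control library by a margin that was larger than the range within either group. The mean went from 10 ± 1.13 to 29 ± 3.26 CPM (SD, n = 4), a log2 fold change of 1.53, or 2.89-fold (SE 0.15, edgeR adjusted p = 5.05e-06; exact permutation test, two-sided p = 0.0286). Ccng1 and Mdm2, both known as p53 targets, thus moved in opposite directions. The ratio of Ccng1 to Mdm2 counts was 0.0573 to 0.0714 in control and 0.248 to 0.293 in KO libraries. Its lack of overlap follows from that of each gene and adds nothing to it.

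Pmaip1, which encodes the BH3-only protein NOXA, had the largest fold change of the 9 tested genes. Its position is on chromosome 18 (ENSMUSG00000024521, 66458533 to 66465565, plus strand). It had 21, 6, 3 and 3 counts in control replicates 1 to 4 and 59, 88, 123 and 390 in KO replicates 1 to 4. These made 0.561, 0.296, 0.204 and 0.219 CPM in control and 6.41, 4.83, 7.59 and 13.3 CPM in KO. The lowest KO library was far above the highest control library, and KO replicate 4 was the highest. The mean was 0.32 ± 0.166 CPM in control and 8.03 ± 3.68 CPM in KO (SD, n = 4), with a log2 fold change of 4.48, or 22.3-fold (SE 0.41, edgeR adjusted p = 3.69e-06; exact permutation test, two-sided p = 0.0286). This log2 fold change lay at the 96.1 percentile of all tested genes, and 3 of the control libraries passed the 0.2 CPM filter by themselves. Without control replicate 1 and KO replicate 4 it was 4.63, and 4 of the 10 genes were upregulated and none downregulated, where 23% and 6.35% of all tested genes were.

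Bax and Bbc3, the other cell death targets, gave no change past the test. Bax encodes a pore-forming protein of the mitochondrial outer membrane and lies on chromosome 7 (ENSMUSG00000003873, 45461697 to 45466898, minus strand). It had 5.67, 13, 9.87 and 11.6 CPM in control replicates 1 to 4 and 7.71, 9.61, 10.8 and 5.42 CPM in KO replicates 1 to 4. The groups overlapped, with control replicate 1 and KO replicate 4 the lowest of each group. The log2 fold change was -0.25 with a 95% interval from -0.85 to 0.34 (edgeR adjusted p = 0.452), and its sign turned with scaling by library size only, to 0.02. A protein-coding gene of the annotation, Gm45808, shares 192 exon bases with Bax on the same strand, so reads there cannot be assigned to one of them. Bbc3, which encodes PUMA, lies on the same chromosome (ENSMUSG00000002083, 16308393 to 16318205, plus strand). It had no count in any control library and 1, 1, 2 and 0 counts in KO replicates 1 to 4. These counts are below the floor of 3 in each library, so Bbc3 was not tested and no fold is given. A level below 0.0802 CPM in the deepest and 0.326 CPM in the shallowest library was not detectable at this depth.

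**Figure D2:**
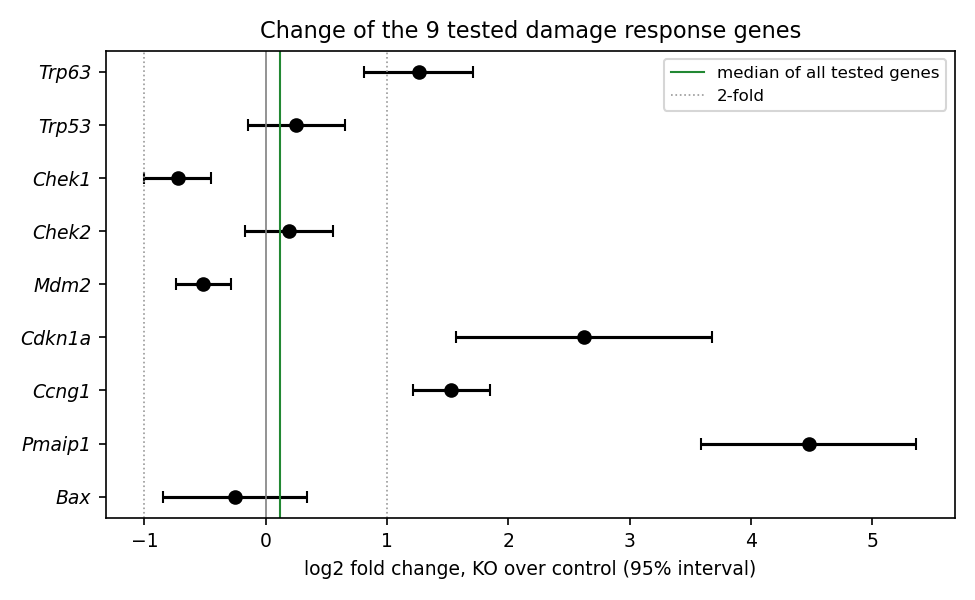
Log2 fold change of KO over control (horizontal axis, points) with 95% intervals (bars) for the 9 tested genes, with dotted lines at 2-fold and a green line at the median of all tested genes, 0.12. Pmaip1, Cdkn1a, Ccng1 and Trp63 have point estimates above 2-fold, Chek1 and Mdm2 lie below 0, and the intervals of Trp53, Chek2 and Bax include 0.

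Over the whole table, the changes differed with the level of a gene. Pmaip1 and Cdkn1a had a mean of 1 to under 10 CPM over the 8 libraries, where 35.7% of the 5031 tested genes were upregulated DEGs. This mean includes the KO values, and in control libraries alone Pmaip1 averaged 0.32 and Cdkn1a 0.308 CPM. The 5482 tested genes with a mean under 1 CPM over the 8 libraries had a median log2 fold change of 1.05. Trp63 and Ccng1 were between 10 and 100 CPM, where 12.7% of 6314 genes were upregulated and the median log2 fold change was -0.17. Trp53, Chek2 and Bax, which did not pass the test, had a mean of 1 to under 10 CPM as well, and the median log2 fold change was 0.47 among the genes of that level. The plot of fold change against level shows the 9 genes within the cloud of all genes.

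**Figure D3:**
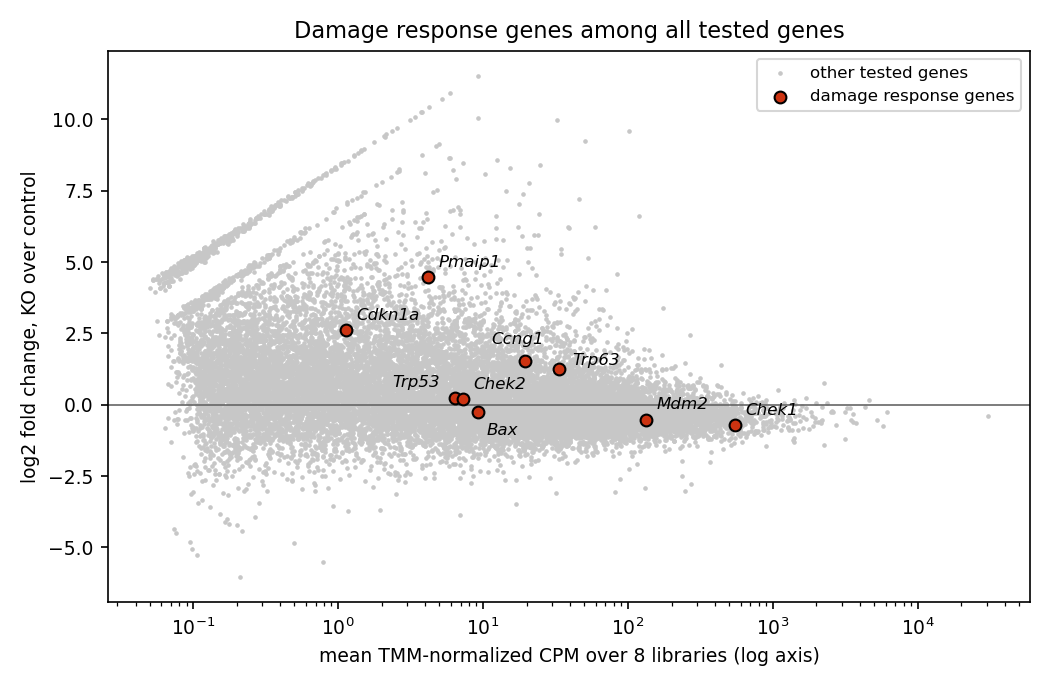
Log2 fold change of KO over control (vertical axis) against mean TMM-normalized CPM over the 8 libraries (horizontal log axis) for the tested genes (grey) and the 9 damage response genes (red). Pmaip1, at 4.48, stands highest of the 9 and Chek1, at -0.72, lowest, and the grey cloud moves down as the level rises.

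The order of the 10 mRNAs was also compared per length, as TMM-normalized CPM per kb of annotated exon. In control oocytes Chek1 had 148 ± 22.6 CPM per kb and Mdm2 30.8 ± 2.92 (SD, n = 4), far above the rest. Bax followed at 6.36 ± 2.01, Ccng1 at 2.85 ± 0.322, Trp63 at 2.35 ± 0.53, Chek2 at 2.26 ± 0.25 and Trp53 at 1.45 ± 0.282 CPM per kb. The range of Trp63 overlapped those of Ccng1, Chek2 and Trp53, whereas Bax stayed above Ccng1, Ccng1 above Chek2 and Chek2 above Trp53. Pmaip1, at 0.117 ± 0.0607, and Cdkn1a, at 0.0866 ± 0.0271 CPM per kb, were the lowest with reads, and their ranges overlapped. In KO oocytes Chek1, at 89.5 ± 9.7, and Mdm2, at 21.5 ± 1.02 CPM per kb, were still the highest. Ccng1 was next at 8.25 ± 0.927, then Trp63 at 5.65 ± 1.51 and Bax at 5.32 ± 1.49, with overlapping ranges between Ccng1 and Trp63 and between Trp63 and Bax. Pmaip1 reached 2.94 ± 1.35 CPM per kb, with a range that overlapped those of Chek2 at 2.59 ± 0.238, Trp53 at 1.73 ± 0.159, Bax and Trp63. Cdkn1a stayed below these at 0.554 ± 0.312 CPM per kb. Exons of all annotated transcripts were added up for the length, so genes with unused exons are understated.

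The direction of 8 of the 9 genes did not depend on which of the scalings tried here was used. All of them are relative to a library's own counts, so they do not give the direction per oocyte. TMM factors were 0.849 to 0.943 in control and 1.07 to 1.14 in KO libraries, and scaling by library size only moved the log2 fold changes of all genes up by a median of 0.29. With it, 4 of the 9 genes remained upregulated DEGs, where 29.3% of all genes were (3.05% were downregulated), and 6 were higher and 2 lower without the 2-fold threshold, where 40.2% and 13.6% of all genes were. The 2 genes gained were Trp53 and Chek2. TMM factors taken from genes of at least 10 CPM gave the same 6 and 2, where 39.4% and 14.9% of all genes passed. Only Bax changed sign, with scaling by library size.

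**Figure D4:**
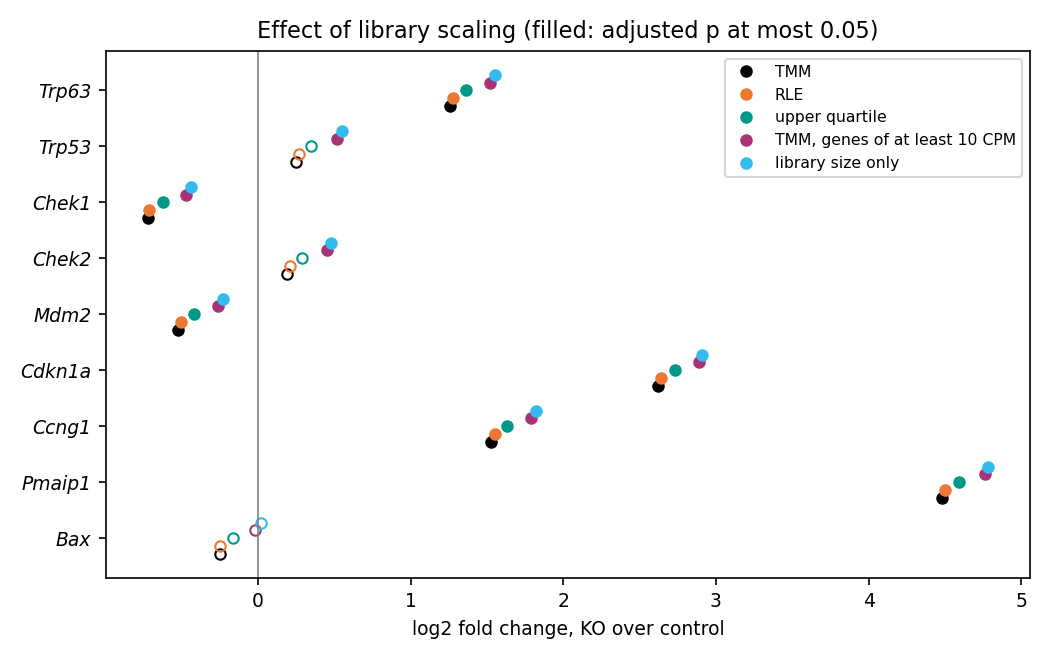
Log2 fold change of KO over control (horizontal axis) of the 9 tested genes under 5 ways of scaling the libraries (colors), filled where the edgeR adjusted p was at most 0.05. The points of each gene shift to the right, by a median of 0.29 over all genes between TMM and library size only, and Trp53 and Chek2 pass the test in 2 of the 5.

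Other genes of the pathway were taken as 4 lists of 70 genes, of which 68 were tested. Over the 4 lists, 9 were upregulated and 2 downregulated DEGs, 14 were higher and 21 lower by the test alone, and 33 did not pass it. The 9 and the 14 include Eda2r and Tnfrsf10b, which passed the filter through the KO libraries. The counts of the lists moved with the scaling, as did the shares over all tested genes. By the test alone, 19 were higher and 11 lower with library size only, where 40.2% and 13.6% of all tested genes were. With TMM factors from genes of at least 10 CPM, 19 were higher and 14 lower, where 39.4% and 14.9% of all tested genes were. With the main TMM scaling, the shares over all tested genes were 23.8% and 6.56% for DEGs. They are to be set beside the counts of each list below as well. For the test alone they were 31.2% and 24.1%. The median log2 fold change of the 68 genes was -0.24, against 0.12 over all tested genes.

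The first list holds 25 damage sensors and checkpoint genes, of which 24 were tested. With TMM scaling, 4 were higher and 12 lower, where 31.2% and 24.1% of all tested genes were. By at least 2-fold, 2 were higher and 1 lower, where 23.8% and 6.56% of all tested genes were. Many of the 24 had a mean of 100 CPM or more, a level at which 55.2% of tested genes were lower. Trp53bp1, which encodes the break-binding protein 53BP1, fell from 746 ± 26.2 to 283 ± 9.97 CPM (SD, n = 4), with all 4 control libraries between 723 and 772 CPM and all KO libraries between 271 and 291 CPM (log2 fold change -1.40, edgeR adjusted p = 3.07e-07). Rad9a, a subunit of the 9-1-1 clamp that helps ATR to activate CHK1, rose from 1.69 ± 1.03 to 9.62 ± 3.48 CPM, with no overlap. Wee1, the kinase that keeps CDK1 inactive, rose from 12.5 ± 5.17 to 28 ± 8.82 CPM (SD, n = 4), and its groups overlapped, since the highest control library had 19.9 CPM and the lowest KO library 19.7 CPM.

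Among 19 regulators of p53 and p63, all tested, 1 was higher and 7 were lower, each with 1 DEG. Trp53bp2, which encodes ASPP2, a protein that directs p53 to cell death genes, rose 10.7-fold from 0.64 ± 0.338 to 7.02 ± 0.889 CPM (SD, n = 4; log2 fold change 3.42, edgeR adjusted p = 4.08e-06). Its 4 KO libraries had 7.06, 5.82, 7.96 and 7.26 CPM, and the highest control library had 1.02 CPM. Kat5, an acetyltransferase of p53 and ATM, fell from 52.1 ± 4.98 to 24.2 ± 3.06 CPM (log2 fold change -1.11), with no overlap. Mdm4, the partner of Mdm2, had 1715 to 2969.9 CPM in control and 1436 to 2091 CPM in KO libraries and did not pass the test, and is named after its values were seen.

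Among 16 p53 targets in arrest, repair and metabolism, 15 were tested, 5 were higher and 2 lower, and 3 were upregulated DEGs. Plk3 rose from 1.89 ± 0.689 to 6.13 ± 2.13 CPM, and Plk2 from 3.21 ± 0.86 to 8.24 ± 1.64 CPM (SD, n = 4). Both encode polo-like kinases that respond to stress. Xpc, a sensor of damaged bases in nucleotide excision repair, rose from 34.4 ± 1.68 to 75.9 ± 13 CPM (log2 fold change 1.14, edgeR adjusted p = 2.43e-05). None of the 3 overlapped between groups. Ddb2, which works beside Xpc, was lower, at 80.3 ± 6.13 CPM in control and 41.8 ± 2.28 CPM in KO (log2 fold change -0.94), and is named after its value was seen.

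Among 10 p53 targets in cell death, 4 were higher, none was lower by the test and 3 were upregulated DEGs. Bid, a BH3-only protein that caspases activate, rose from 1.22 ± 0.569 to 3.16 ± 0.809 CPM (SD, n = 4; log2 fold change 1.41, edgeR adjusted p = 0.00463). The other 2, named after their values were seen, were the receptor genes Eda2r, with 10, 0, 1 and 0 counts in control and 13, 37, 16 and 40 in KO replicates 1 to 4, and Tnfrsf10b, with 2, 5, 2 and 1 counts in control and 2, 9, 15 and 9 in KO. Both passed the filter through the KO libraries, and only 1 control library of each reached 0.2 CPM. The other 6 genes of the list did not pass the test.

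**Figure D5:**
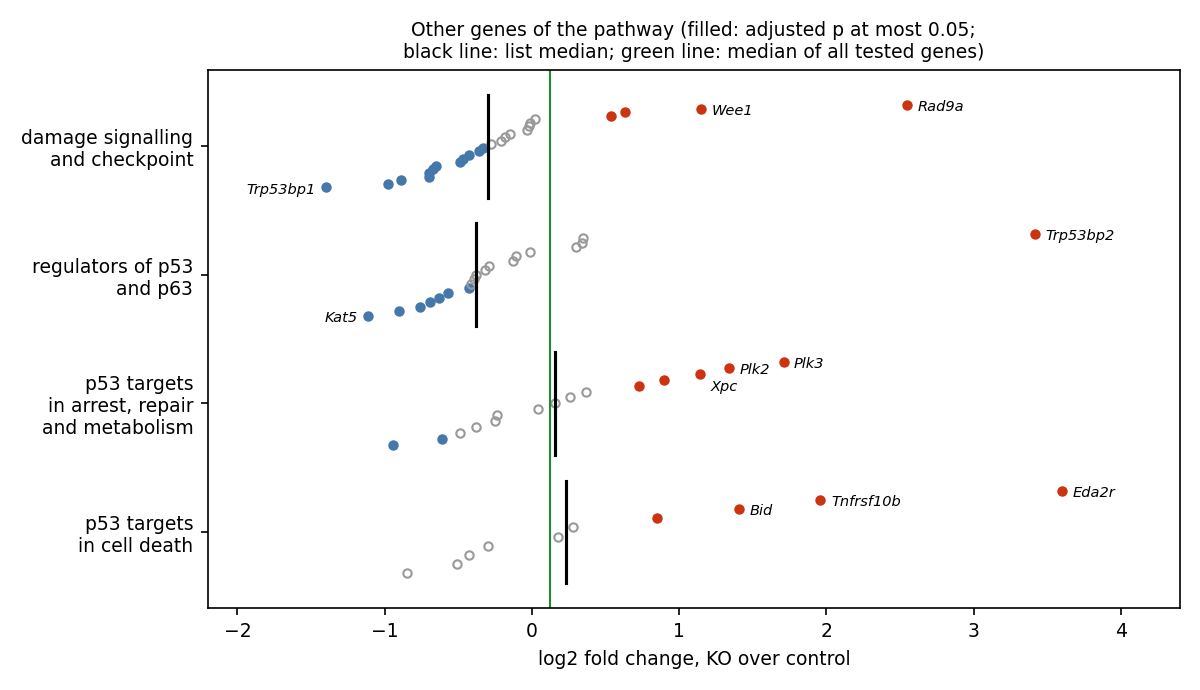
Log2 fold change of KO over control (horizontal axis) of the 68 tested genes in the 4 lists, filled where the adjusted p was at most 0.05 (red higher, blue lower), with names for DEGs, a black line at each list's median and a green line at the median of all tested genes, 0.12. The medians are -0.3 and -0.38 for the first 2 lists and 0.16 and 0.23 for the lists of p53 targets.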

How the data were processed

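RNA-seq counts of 8 libraries were used, 4 of Zp3-Cre control and 4 of CNOT7&8 KO oocytes, grouped by the deposited labels. Libraries were made from total RNA by ribosomal RNA depletion in both sources, but the labels name a stranded total RNA kit with Ribo-Zero Gold and the paper a stranded mRNA kit. If poly(A) selection was used, a count could also depend on tail length, which these files cannot show. The authors mapped 150-bp read pairs to GRCm38 with STAR (2.6.1d in the submitters' notes) and deposited raw counts per gene. The counting tool, annotation and strand setting are not given in the sources used here. The study used edgeR's exact test. Here, R 4.3.3 with edgeR 4.0.16 was used: genes of at least 0.2 CPM in 2 libraries, TMM scaling, quasi-likelihood test with Benjamini-Hochberg adjustment over all 19241 tested genes, DEGs at 0.05 and 2-fold, with DESeq2 1.42.0 as an alternative. Standard errors are the log2 fold change over the square root of F. Permutation tests were exact over 70 assignments of log2 CPM (prior count 2), smallest p 0.0286. The fit was tested on simulated counts. Replicates did not share a library (chi-square per degree of freedom of at least 7.85 between any pair).

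Of the gene identifiers, 98.2% matched GENCODE vM21, the same build, and the longest 3′UTR of coding transcripts was used. Of 2 rows named Rad9a, the one in that annotation was taken. The 10 genes, the lists and the alternatives were chosen with earlier results of these data known. From each list, the DEGs averaging 1 CPM or more over all libraries are named, up to the 3 with the largest rise and the 3 with the largest fall, and others are marked as named after their values were seen. The paper's proteome, polysome and reporter experiments were not analysed here.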

Additional observations from a re-analysis of the deposited data

Results flagged for a closer look

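The gap between 1 library and its nearest neighbour, divided by the range of the group, exceeded Dixon's 95% critical value in 3 of the 40 groups examined. About 2 such groups, or 1 in 20, arise by chance. Trp53 was at 7.54 CPM in control replicate 1 and at 5.03 to 5.44 CPM in the other control libraries, so the overlap of its groups rests on that library. Ccng1 was at 33.8 CPM in KO replicate 4 and at 26.6 to 27.8 CPM in the other KO libraries. Cnot7 was at 1049 CPM in control replicate 1 and at 886 to 900.2 CPM in the other control libraries.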

How the results depend on the processing

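Under the 18 alternatives, the log2 fold changes of Pmaip1 (4.15 to 5.01), Cdkn1a (2.39 to 2.91), Ccng1 (1.47 to 1.82), Trp63 (1.09 to 1.55), Mdm2 (-0.57 to -0.23) and Chek1 (-0.78 to -0.44) stayed past an adjusted p of 0.05. Trp53 (0.19 to 0.55) and Chek2 (0.12 to 0.48) passed it in 2 alternatives each, library size only and TMM factors from genes at or above 10 CPM, and Bax in none (-0.46 to 0.02), with its sign turned to 0.02 by library size only. The count of upregulated DEGs among the 10 genes was 4 throughout. At a false discovery rate of 0.05 alone, 2 of the 10 genes were lower. Of the lists, 14 genes were then higher and 21 lower, where 31.2% and 24.1% of all tested genes were. With library size only, 12 genes of the lists were upregulated and 1 a downregulated DEG, where 29.3% and 3.05% of all tested genes were. With those TMM factors the counts were 11 and 1, where 5495 and 628 of the 19241 tested genes were DEGs. By the test alone, 19 were higher and 11 lower with library size only, where 40.2% and 13.6% of all tested genes were. With those TMM factors, 19 were higher and 14 lower, where 39.4% and 14.9% of all tested genes were. With each library left out in turn, 4 of the 10 genes were upregulated and 0 downregulated DEGs, and 8 to 9 genes of the lists were upregulated and 2 to 3 downregulated. Deviations of same-numbered libraries from their group means had correlations of -0.15, -0.1, 0.24 and -0.28, and those of other pairs ranged from -0.54 to 0.59. With 4 libraries in each group, such values cannot show whether same-numbered libraries shared a batch. With the replicate number as a block, 4 of the 10 genes were upregulated and 0 downregulated, and 9 and 2 genes of the lists. Control replicate 1 and KO replicate 4 deviated together (0.59). Without both, an alternative added after the data were seen, 4 of the 10 genes were upregulated and 0 downregulated. Depth limits Bbc3, and Cdkn1a and Pmaip1 in control libraries.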

Other observations

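The 6 genes that passed the test in either direction, Trp63, Chek1, Mdm2, Cdkn1a, Ccng1 and Pmaip1, were those with at least 4 copies of the ARE sequence ATTTA in their longest 3′UTR, which 29.7% of all tested genes with a 3′UTR have. Trp53, Chek2 and Bax had at most 1 copy. Their 3′UTRs were also shorter, at 565, 579 and 224 bases against 1334 to 3064 bases. Across all tested genes, 57.2% of those without the sequence, 58.6% of those with 1 to 3 copies and 60.3% of those with at least 4 copies passed the test. The share that was higher in KO was 25%, 30.2% and 37.3% in these 3 classes, and the share that was lower was 32.2%, 28.4% and 22.9%. Of the 6 genes, Chek1 and Mdm2 were lower. The classes' median 3′UTR lengths were 388, 1064 and 2670 bases. This pattern was noticed in the data and was not tested.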
